A study of Mus musculus with 2 samples.

Results

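The 40 genes described here encode factors of ribosome biogenesis and proteins of the nucleolus, and were chosen by symbol as a fixed gene list out of the 32285 genes measured. All 40 were found by symbol and had transcripts counted in both libraries. They were measured by droplet single-cell RNA sequencing of haematopoietic stem cell fractions. The marrow donors were WT mice of strain C57Bl6, and the title gives their age as 8 weeks. The library labelled ST-HSC (short-term haematopoietic stem cells) came from LSK cells gated as negative for CD34 and positive for both CD150 and CD48. The library labelled LT-HSC (long-term haematopoietic stem cells) came from LSK cells that were CD34-negative and CD150-positive and lacked CD48 and Flk2. LSK stands for lineage-negative, Sca-1-positive and Kit-positive marrow cells. There was 1 library per group, how many animals were pooled is not given in the sources used here, and no test between groups was possible. The values are unique molecular identifier (UMI) counts summed over cells and scaled by the total of those cells to CPM, which is a share of all RNA counted and not an amount per cell.

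Ribosomes are assembled in the nucleolus, where RNA polymerase I transcribes the long ribosomal RNA precursor. Small nucleolar ribonucleoproteins (snoRNPs) of the box C/D and box H/ACA classes then guide its methylation and pseudouridylation, and separate sets of assembly factors build, cleave and export the small and the large subunit. In blood formation, stem cells are known for low protein synthesis, and several blood disorders with failing red cell production carry mutations in ribosomal or nucleolar genes. The list holds 5 nucleolar proteins, 3 subunits of RNA polymerase I, 3 box C/D and 4 box H/ACA core proteins, 12 small-subunit factors and 13 large-subunit factors.

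After cells with under 1000 genes or with 10% or more mitochondrial UMIs were left out, 6648 of 7586 barcodes were kept in the ST-HSC library and 2722 of 2938 in the LT-HSC library. Median depth was 13402 UMIs per cell in the ST-HSC library and 17595 UMIs in the LT-HSC library, with medians of 3.47% and 1.60% mitochondrial UMIs in that order of libraries, and 8 barcodes occurred in both. Transcripts of the gate's surface proteins did not follow the gate of the library labelled ST-HSC. Slamf1, which encodes CD150, stood at 1.26 CPM in the ST-HSC library and 26.5 CPM in the LT-HSC library, Cd34 at 242 and 29.2 CPM, and Flt3, which encodes Flk2, at 291 and 5.50 CPM. Directions between the libraries below therefore refer to the libraries as labelled. Both libraries held cells with RNA of several blood lineages, so the genes were also described in classes of cells cut on 1 gene each, after thinning every cell to 5000 UMIs. Car1-high cells had at least 10 thinned UMIs of the erythroid carbonic anhydrase gene Car1, Pf4-high cells at least 5 of the platelet factor gene Pf4, and Dntt-positive cells at least 2 of the lymphoid transferase gene Dntt. Hlf-high cells had at least 2 of the stem cell factor gene Hlf and passed none of the other cuts. Cells that passed both of a pair of cuts on Car1, Pf4 and Dntt, 2 in the ST-HSC library and 7 in the LT-HSC library, were left out of these classes. Car1-high cells numbered 265 in the ST-HSC library and 733 in the LT-HSC library, and Hlf-high cells 3059 and 722. The 254 Pf4-high cells described were in the LT-HSC library and the 969 Dntt-positive cells in the ST-HSC library, since the opposite libraries held only 15 and 1 such cells. These classes are ranges of a count and not cell types, and many cells lie near a cut. Within a factor of 2 below and above the cut on Dntt lay 600 and 427 ST-HSC cells, and around the cut on Hlf 1070 and 1565 ST-HSC cells and 352 and 496 LT-HSC cells. Around the cut on Car1 lay 61 and 165 ST-HSC cells and 92 and 190 LT-HSC cells, and around the cut on Pf4 76 and 60 LT-HSC cells.

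Marker lists of each lineage were summed over the classes, and each list includes the gene that cut its class. The part of a sum held by that gene follows from the cut. Car1 held 3709 and 6803 CPM of the sums of the Car1-high cells of the ST-HSC and LT-HSC libraries. Pf4 held 5629 CPM in the Pf4-high cells and Dntt 962 CPM in the Dntt-positive cells. Hlf held 819 and 540 CPM in the Hlf-high cells of the ST-HSC and LT-HSC libraries. Over 12 erythroid markers the summed level was 8115 CPM in Car1-high and 572 CPM in Hlf-high cells of the ST-HSC library, and 9543 and 1062 CPM in those classes of the LT-HSC library. The 10 stem cell markers summed to 409 and 3537 CPM in the Car1-high and Hlf-high cells of the ST-HSC library, and to 288 and 3131 CPM in the LT-HSC library. The 10 megakaryocyte markers summed to 6926 CPM in Pf4-high and 385 CPM in Hlf-high cells of the LT-HSC library, and the 10 lymphoid markers to 2726 CPM in Dntt-positive and 716 CPM in Hlf-high cells of the ST-HSC library. The 3 markers of mature B cells summed to at most 0.707 CPM in either library and each class compared, so this cell type's RNA was near 0. The macrophage list summed to at most 9.74 CPM and the endothelial or stromal list to at most 5.89 CPM. Some other lists were higher. In Hlf-high cells of the ST-HSC and LT-HSC libraries the 9 neutrophil and monocyte progenitor markers summed to 668 and 492 CPM. Of these sums the single gene Prtn3 held 405 and 477 CPM. The 6 dendritic markers, led by Cd74, summed to 712 and 938 CPM in these cells, and the 5 T or NK markers, led by Nkg7, to 103 and 31.5 CPM.

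The promoters of 35 of the 40 genes were found by symbol in RefSeq (build GRCm38.p6), each covering 250 bases before and 50 after the start of the gene, and Rrp12, Fbl, Npm1, Rrs1 and Bop1 were not among them. They were searched for the E-box CACGTG, the same on both strands, which Myc and other helix-loop-helix factors read and which is a known feature of many ribosome biogenesis genes. The motif was present in 8 of the 35 genes, or 22.9%, against 8.09% of all 27025 genes in that table and 8.91% of its 17491 protein-coding genes. The 8 windows are shown because they are where the list's promoters share letters that the list did not use. They run 5′ to 3′ in the direction of the gene, with the motif in capitals.

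Imp4: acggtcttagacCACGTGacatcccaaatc

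Nop2: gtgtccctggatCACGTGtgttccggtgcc

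Pes1: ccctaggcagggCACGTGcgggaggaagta

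Utp4: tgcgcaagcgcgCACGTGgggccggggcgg

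Wdr43: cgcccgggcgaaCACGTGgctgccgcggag

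Nle1: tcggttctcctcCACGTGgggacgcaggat

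Tsr1: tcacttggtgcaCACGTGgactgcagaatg

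Utp20: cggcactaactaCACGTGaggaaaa

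The motif began 121 bases before the start of Imp4 (chr1:34439696-34439725, plus strand) and 60 bases before that of Nop2 (chr6:125131811-125131840, plus strand). In the other 6 it lay just inside the transcribed side. It began at base 3 in Pes1 (chr11:3963965-3963994, plus strand), base 16 in Utp4 (chr8:106893643-106893672, plus strand) and base 18 in Wdr43 (chr17:71616220-71616249, plus strand). It began at base 24 in Nle1 (chr11:82908355-82908384, minus strand), base 25 in Tsr1 (chr11:74898092-74898121, plus strand) and base 38 in Utp20 (chr10:88826765-88826789, minus strand). Positions are counted from the RefSeq start. Of the 38 promoters of the list, 31 had bases 6 to 35 after that start in a GENCODE M21 transcript of the gene. Those of Imp4, Nop2 and Utp20 did not, so their distances hold for the RefSeq start only. A match is a run of letters and not a measured binding site.

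The 250 bases before the start are also shown for the pair of box H/ACA genes with the lowest ratio of the ST-HSC to the LT-HSC library, for the polymerase gene with the highest, and for Nop2, whose motif stands in capitals. The stretches lie at chr3:129831397-129831646, minus strand, for Gar1, at chr2:112261676-112261925, plus strand, for Nop10, at chr6:71908803-71909052, plus strand, for Polr1a, and at chr6:125131633-125131882, plus strand, for Nop2.

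Gar1: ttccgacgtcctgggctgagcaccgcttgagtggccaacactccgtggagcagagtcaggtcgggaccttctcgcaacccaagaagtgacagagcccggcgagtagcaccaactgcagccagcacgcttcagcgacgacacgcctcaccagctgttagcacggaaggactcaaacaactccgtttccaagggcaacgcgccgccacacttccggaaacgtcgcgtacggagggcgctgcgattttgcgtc

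Nop10: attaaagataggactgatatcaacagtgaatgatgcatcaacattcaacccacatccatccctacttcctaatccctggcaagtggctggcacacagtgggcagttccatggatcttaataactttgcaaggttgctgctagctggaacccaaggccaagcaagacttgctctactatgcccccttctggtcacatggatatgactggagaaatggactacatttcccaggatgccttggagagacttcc

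Polr1a: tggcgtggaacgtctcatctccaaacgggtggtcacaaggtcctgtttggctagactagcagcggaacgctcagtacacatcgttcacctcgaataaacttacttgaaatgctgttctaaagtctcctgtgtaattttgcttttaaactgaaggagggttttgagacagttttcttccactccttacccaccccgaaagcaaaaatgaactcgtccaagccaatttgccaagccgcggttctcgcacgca

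Nop2: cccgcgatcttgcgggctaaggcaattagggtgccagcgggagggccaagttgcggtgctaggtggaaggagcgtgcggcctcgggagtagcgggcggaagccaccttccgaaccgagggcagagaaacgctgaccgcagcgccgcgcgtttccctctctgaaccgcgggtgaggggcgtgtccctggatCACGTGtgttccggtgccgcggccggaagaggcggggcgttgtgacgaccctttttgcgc

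The stretches of Gar1, Nop10 and Polr1a hold no CACGTG. Over the whole 300 bases, the G and C content was 63.0% for Gar1, 49.3% for Nop10, 48.7% for Polr1a and 66% for Nop2, beside a median of 59.3% over the list and 56.3% over protein-coding genes.

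The 40 genes made up the largest share of RNA in Car1-high cells and the smallest in Hlf-high and Dntt-positive cells. Together they held a median of 1.05% of a cell's UMIs in the Car1-high cells of the ST-HSC library and 0.927% in those of the LT-HSC library. The median was 0.694% in Pf4-high cells of the LT-HSC library and 0.459% in Dntt-positive cells of the ST-HSC library. In Hlf-high cells it was 0.438% in the ST-HSC library and 0.448% in the LT-HSC library. The range between quartiles of the Car1-high cells, 0.904% to 1.18% in the ST-HSC library and 0.720% to 1.12% in the LT-HSC library, lay above that of the Hlf-high cells, 0.340% to 0.541% and 0.368% to 0.552%. Depth moved with class, since Car1-high cells had medians of 38952 and 33664 UMIs and Hlf-high cells 11888 and 12234 UMIs in the ST-HSC and LT-HSC libraries. After thinning to 5000 UMIs the medians were 1.0% and 0.90% in Car1-high cells and 0.42% and 0.44% in Hlf-high cells of those libraries. Among cells with 20000 to 40000 UMIs the medians were 1.07% and 0.900% in Car1-high cells and 0.469% and 0.511% in Hlf-high cells. Without Ncl and Npm1, the other genes still held 0.561% and 0.567% of all UMIs of the Car1-high cells, and 0.266% and 0.297% of those of the Hlf-high cells.

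**Figure D1:**
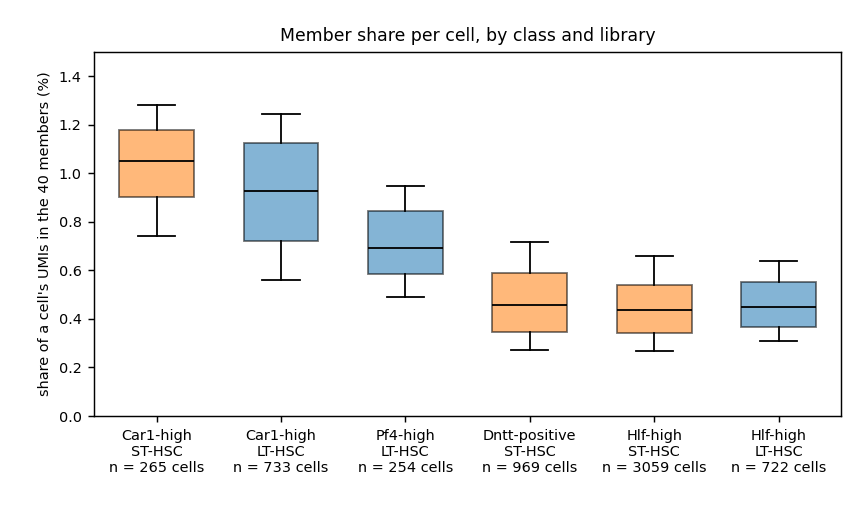
Share of a cell's UMIs in the 40 genes (percent, vertical axis) for 6 classes of cells. Boxes show the quartiles over cells with a line at the median and whiskers the 10th and 90th percentiles, so they describe cells and not replicates. The Car1-high medians, 1.05% and 0.927%, stand above those of the Hlf-high cells, 0.438% and 0.448%.

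In the Car1-high cells, which hold erythroid RNA, nearly every gene of the list took a larger share of RNA than in the Hlf-high cells of the same library. By size (a CPM at least 25% above counts as higher and one at least 20% below as lower, among genes with a mean of at least 5 CPM), 40 of the 40 genes were higher in the ST-HSC library, where 28.9% of all genes tested were higher and 46.7% lower. In the LT-HSC library 38 of the 40 were higher, against 23.7% of all genes higher and 50.9% lower, and the 38 were also higher in the ST-HSC library. The median log2 ratio was 1.06 in the ST-HSC library and 0.95 in the LT-HSC library, beside -0.23 and -0.34 over all genes tested. With TMM scaling the median over all genes was 0.10 in the ST-HSC library, with 41.4% of all genes higher and 36% lower, and 0.24 in the LT-HSC library, with 46.2% higher and 29.2% lower. All 40 genes of the list were then higher in both libraries. Intervals of ratios given here cover counting error only.

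The nucleolar proteins were all higher in Car1-high cells. Ncl, which encodes nucleolin, an RNA-binding protein of the nucleolus that contacts the ribosomal RNA precursor, had 1934 and 1579 CPM in the Car1-high cells of the ST-HSC and LT-HSC libraries, 1021 CPM in the Pf4-high cells, 819 CPM in the Dntt-positive cells, and 764 and 675 CPM in the Hlf-high cells of the ST-HSC and LT-HSC libraries. Both Car1-high values lay above the other 4 classes, and the Hlf-high and Dntt-positive values formed the low end. The ratio of Car1-high to Hlf-high cells was 2.53 in the ST-HSC library (95% counting interval 2.49 to 2.58) and 2.34 in the LT-HSC library (95% counting interval 2.28 to 2.40). Npm1, which encodes nucleophosmin, the scaffold of the granular part of the nucleolus, had 2979 and 2899 CPM in the Car1-high cells of the ST-HSC and LT-HSC libraries, 1911 CPM in the Pf4-high cells, 1519 CPM in the Dntt-positive cells, and 1335 and 1374 CPM in the Hlf-high cells of the ST-HSC and LT-HSC libraries. It followed the same order as Ncl from Car1-high to Pf4-high cells, with ratios of 2.23 and 2.11 for Car1-high over Hlf-high cells of the ST-HSC and LT-HSC libraries. Nolc1, a chaperone that binds both classes of snoRNP, had the highest ratio of the group, 3.003 in the ST-HSC library and 2.73 in the LT-HSC library. Gnl3, the GTPase nucleostemin, had ratios of 2.58 and 2.18. The helicase gene Ddx21 had the lowest of the group, 1.93 and 1.497.

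**Figure D2:**
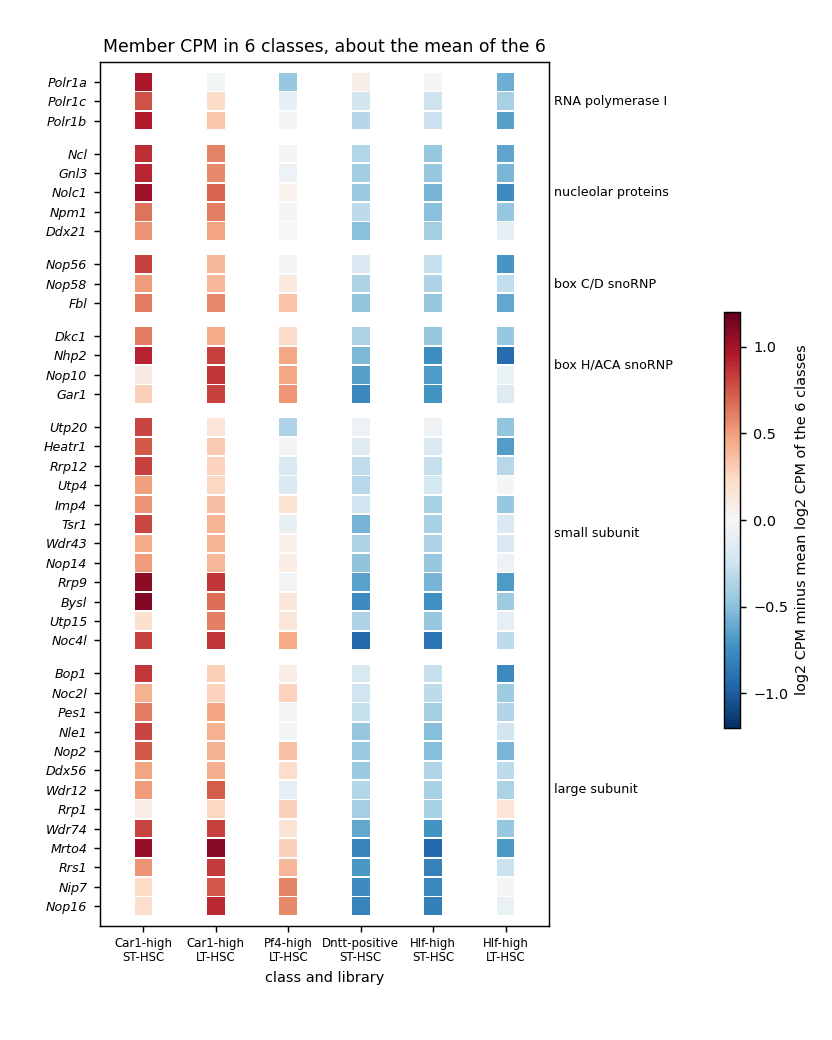
Level of each of the 40 genes in 6 classes, as log2 CPM minus the mean of that gene's log2 CPM over the 6 classes (colour), with genes grouped by role and ordered within a role by the library ratio. Red marks a class above a gene's own mean and blue one below it. The highest of the 6 values was in the ST-HSC Car1-high cells for 29 genes, in the LT-HSC Car1-high cells for 10 and in the Pf4-high cells for 1.

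The 3 subunits of RNA polymerase I were higher in Car1-high cells of both libraries, with a larger summed ratio in the ST-HSC library. Together they had 184 CPM in Car1-high and 90.2 CPM in Hlf-high cells of the ST-HSC library (ratio 2.04), and 111 and 69.8 CPM in those classes of the LT-HSC library (ratio 1.59). Polr1a, the largest subunit and part of the catalytic centre, had 75.5 and 37.3 CPM in the Car1-high cells of the ST-HSC and LT-HSC libraries, 27.8 CPM in the Pf4-high cells, 40.5 CPM in the Dntt-positive cells, and 38.5 and 25.5 CPM in the Hlf-high cells of the ST-HSC and LT-HSC libraries. In both classes found in each library the ST-HSC value was the higher, a difference given with the libraries below. Polr1b, the second-largest subunit, had ratios of 2.31 and 1.98 for Car1-high over Hlf-high cells of the ST-HSC and LT-HSC libraries. Polr1c, which is shared with RNA polymerase III, had ratios of 2.02 and 1.55.

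Among the snoRNP proteins, Nhp2 stood out by size in both libraries. Nhp2, a core protein of the box H/ACA particles that carry out pseudouridylation, had 383 and 358 CPM in the Car1-high cells of the ST-HSC and LT-HSC libraries, 279.9 CPM in the Pf4-high cells, 139.5 CPM in the Dntt-positive cells, and 120.5 and 107 CPM in the Hlf-high cells of the ST-HSC and LT-HSC libraries. Its ratio of Car1-high to Hlf-high cells was 3.18 in the ST-HSC library (95% counting interval 3.05 to 3.31) and 3.35 in the LT-HSC library (95% counting interval 3.15 to 3.56). Dkc1, the pseudouridine synthase of those particles, had 235 CPM in Car1-high and 111 CPM in Hlf-high cells of the ST-HSC library, and 209.6 CPM in Car1-high and 111 CPM in Hlf-high cells of the LT-HSC library. Its ratios of 2.12 and 1.88 were below those of Nhp2. Gar1 and Nop10, which complete the H/ACA core, had ratios of 2.01 and 1.71 in the ST-HSC library and 1.97 and 1.91 in the LT-HSC library. All 4 H/ACA proteins are also known as parts of the telomerase particle. Fbl, the methyltransferase fibrillarin of the box C/D particles, had 393 CPM in Car1-high and 186 CPM in Hlf-high cells of the ST-HSC library, and 382 CPM in Car1-high and 166 CPM in Hlf-high cells of the LT-HSC library. That is a ratio of 2.11 in the ST-HSC library and 2.31 in the LT-HSC library. The box C/D scaffold proteins had ratios of 2.14 and 2.14 for Nop56 and 1.84 and 1.62 for Nop58.

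The 12 small-subunit factors, which act on the precursor of the 40S subunit, were all higher in Car1-high cells of the ST-HSC library, and 11 of 12 in the LT-HSC library. Bysl, needed for late 40S maturation, had 53.7 CPM in Car1-high and 14.9 CPM in Hlf-high cells of the ST-HSC library, and 39.4 CPM in Car1-high and 18.4 CPM in Hlf-high cells of the LT-HSC library. It had the highest ratio of the group in the ST-HSC library, 3.61, beside 2.14 in the LT-HSC library. Rrp9, a protein of the U3 snoRNP that guides the first cleavages, had 57.4 CPM in Car1-high and 18.5 CPM in Hlf-high cells of the ST-HSC library, and 49.4 CPM in Car1-high and 17.0 CPM in Hlf-high cells of the LT-HSC library. Its ratios were 3.10 and 2.91. Noc4l, the partner of Nop14 in yeast, had ratios of 3.25 and 2.26, and Nop14 itself 1.95 and 1.37. The members of the early-acting complex that links transcription to processing spread widely. Heatr1 had ratios of 1.89 and 1.97, Utp15 1.56 and 1.65, Wdr43 1.76 and 1.502, and Utp4 1.63 and 1.21. Utp4, with 65.1 CPM in Car1-high and 39.9 CPM in Hlf-high cells of the ST-HSC library, and 55.1 CPM in Car1-high and 45.5 CPM in Hlf-high cells of the LT-HSC library, was the small-subunit factor that did not reach the limit in the LT-HSC library. The ratios of the other 4 were between 1.81 and 2.28 in the ST-HSC library and between 1.49 and 1.76 in the LT-HSC library. These are Utp20 and Imp4 of the early small-subunit particle, Tsr1 of late 40S maturation and Rrp12, which takes part in subunit export.

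The large-subunit factors held both the highest and the lowest ratio of the list. Mrto4, which holds the place of the ribosomal stalk on the maturing 60S subunit, had 201 and 207 CPM in the Car1-high cells of the ST-HSC and LT-HSC libraries, 118 CPM in the Pf4-high cells, 55.7 CPM in the Dntt-positive cells, and 50.9 and 60.2 CPM in the Hlf-high cells of the ST-HSC and LT-HSC libraries. Its ratio of Car1-high to Hlf-high cells was the highest of the 40 in both libraries, 3.94 in the ST-HSC library (95% counting interval 3.71 to 4.18) and 3.44 in the LT-HSC library (95% counting interval 3.17 to 3.73). Pseudogenes of it are annotated as Mrto4-ps1 and Mrto4-ps2, and how reads shared with them were counted is not given in the sources used here. Wdr74, a 60S assembly factor that works with a large ATPase to release nucleolar particles, had ratios of 2.87 and 2.42. Pes1, Bop1 and Wdr12, which form 1 complex needed for maturation of the 5.8S and 28S ribosomal RNA, had ratios of 2.04, 2.17 and 1.86 in the ST-HSC library and 1.77, 2.06 and 2.14 in the LT-HSC library. Nop2, a methyltransferase of the 28S ribosomal RNA, had ratios of 2.37 and 1.95. Nle1, Nop16, Nip7, Rrs1, Noc2l and the helicase gene Ddx56 had ratios between 1.67 and 2.55 in the ST-HSC library and between 1.57 and 2.14 in the LT-HSC library. Rrp1 differed from the rest by size, with 183 and 205 CPM in the Car1-high cells of the ST-HSC and LT-HSC libraries, 208 CPM in the Pf4-high cells, 129 CPM in the Dntt-positive cells, and 131 and 191 CPM in the Hlf-high cells of the ST-HSC and LT-HSC libraries. Its ratio was 1.39 in the ST-HSC library and 1.07 in the LT-HSC library, the lowest of the 40 in each, and its highest value was in Pf4-high cells.

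Across the 6 classes a gene's highest level was between 1.62 and 4.06 times its lowest. Rrp1 had the narrowest range and Mrto4 the widest, and the lowest level was in LT-HSC Hlf-high cells for 17 genes, in ST-HSC Hlf-high cells for 13 and in Dntt-positive cells for 10. Longer genes tended to have smaller ratios of Car1-high to Hlf-high cells, within the list and outside it. Spearman's rho between the ratio and the genomic span of the gene was -0.420 over the 40 genes in the ST-HSC library and -0.483 in the LT-HSC library, beside -0.306 and -0.295 over all protein-coding genes tested. These values are across genes, which are not independent replicates and share cells and depth. The genes with CACGTG in the promoter had a median ratio of 1.98 in the ST-HSC library and 1.56 in the LT-HSC library, and the 27 without it 2.03 and 1.97. The cell cycle moved with class, since 230 of 265 Car1-high cells of the ST-HSC library and 446 of 733 of the LT-HSC library passed the cycle cut described below, against 754 of 3059 and 36 of 722 Hlf-high cells. With those cells left out, the median log2 ratio in the LT-HSC library was 0.82 and 37 of 40 genes were higher. Over all genes the median was then -0.30, with 22.5% higher and 49.1% lower. The ST-HSC library had only 35 Car1-high cells left, too few to compare.

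In the Pf4-high cells, which hold megakaryocyte RNA, 26 of the 40 genes were higher than in Hlf-high cells of the LT-HSC library and 0 were lower, against 21.4% of all genes higher and 41.4% lower. The median log2 ratio was 0.59, beside -0.18 over all genes tested. Nhp2 again led, with 279.9 CPM in Pf4-high and 107 CPM in Hlf-high cells (ratio 2.62, 95% counting interval 2.44 to 2.82). It was followed by Mrto4 at 1.96, Fbl at 1.96 and Nop2 at 1.87. All 4 box H/ACA and all 3 box C/D proteins were higher, with summed ratios of 1.66 and 1.60. The nucleolar proteins other than Ddx21 were higher, with Ncl at 1.51 and Npm1 at 1.39, and Ddx21 was between the limits at 1.07. Of the 12 small-subunit factors 5 were higher, among them Noc4l at 1.71, and the lowest of the list were Utp4 at 0.892, Tsr1 at 1.06 and Utp20 at 1.07. Polr1a was between the limits at 1.09 and Polr1b was higher at 1.56. With TMM scaling 39 of the 40 genes were higher, Utp4 was above 1, and 33.6% of all genes were higher and 28.1% lower.

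The Dntt-positive cells, which hold lymphoid RNA, differed little from the Hlf-high cells of the ST-HSC library in these genes. By size 0 of the 40 genes were higher and 0 lower, against 6.01% of all genes higher and 12.1% lower, so few genes of any kind passed a limit. Ratios ran from 0.889 for Tsr1 to 1.16 for Nhp2. Npm1, at 1519 CPM in Dntt-positive and 1335 CPM in Hlf-high cells, had a ratio of 1.14 (95% counting interval 1.12 to 1.15), and Ncl one of 1.07. Imp4 at 1.12 and Pes1 at 1.09 were the next highest, and Utp4 at 0.922 and Rrp9 at 0.934 the next lowest. Polymerase I subunits lay between 0.942 for Polr1b and 1.05 for Polr1a.

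Between the libraries as labelled, 26 of the 40 genes were lower and 1 was higher in all kept cells of the ST-HSC library, where 23% of all genes were lower and 38.5% higher. The makeup of the libraries moved with this count. Car1-high cells were 4.16% of the thinned cells of the ST-HSC library and 27.6% of those of the LT-HSC library, and held 17.0% and 56.4% of the UMIs of the 40 genes. With Car1-high and Pf4-high cells left out, 10 of the 40 genes were lower and 4 higher. Over all genes 25% were then lower and 29.2% higher, so both counts were at or below the background. The median log2 ratio of the 40 genes was then -0.11 in place of -0.38. Marker levels of other cells differed too, with neutrophil and monocyte progenitor markers at a sum of 1543 CPM in the ST-HSC library and 184 CPM in the LT-HSC library, and all 9 of those markers had UMIs in both. Of these sums Prtn3 held 558 and 168 CPM. The part of such other cells in the result was not tested. With TMM scaling 32 of the 40 genes were lower and 1 higher, against 31.1% of all genes lower and 30.8% higher. With 1 library each, what the sort, the animals and the library preparation contribute cannot be told apart.

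The roles differed from one another between the libraries. The 4 box H/ACA proteins summed to 751 CPM in the ST-HSC library and 1327 CPM in the LT-HSC library, the lowest summed ratio of the 6 roles at 0.566. The summed ratio was 0.657 for large-subunit factors, 0.770 for nucleolar proteins, 0.787 for small-subunit factors, 0.808 for box C/D proteins and 1.11 for polymerase I. The 26 lower genes were all 4 box H/ACA proteins, 10 of 13 large-subunit factors, 4 of 5 nucleolar proteins, 2 of 3 box C/D proteins and 6 of 12 small-subunit factors. Nop16, a 60S assembly factor, had 46.5 CPM in the ST-HSC library and 104 CPM in the LT-HSC library, the lowest ratio of the list at 0.447 (95% counting interval 0.431 to 0.463). Gar1 had 93.03 and 189 CPM (ratio 0.493), Nop10 352 and 708 CPM (0.497), and Nip7 55.9 and 112 CPM (0.5002). These 4 genes, which sit at chr13 (Nop16), chr3 (Gar1), chr2 (Nop10) and chr8 (Nip7), are not neighbours. Polr1a was the gene counted as higher, with 43.9 CPM in the ST-HSC library and 30.6 CPM in the LT-HSC library (ratio 1.43, 95% counting interval 1.36 to 1.51). Utp20 at 1.17, Bop1 at 1.05 and Heatr1 at 1.009 came next and were between the limits.

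**Figure D3:**
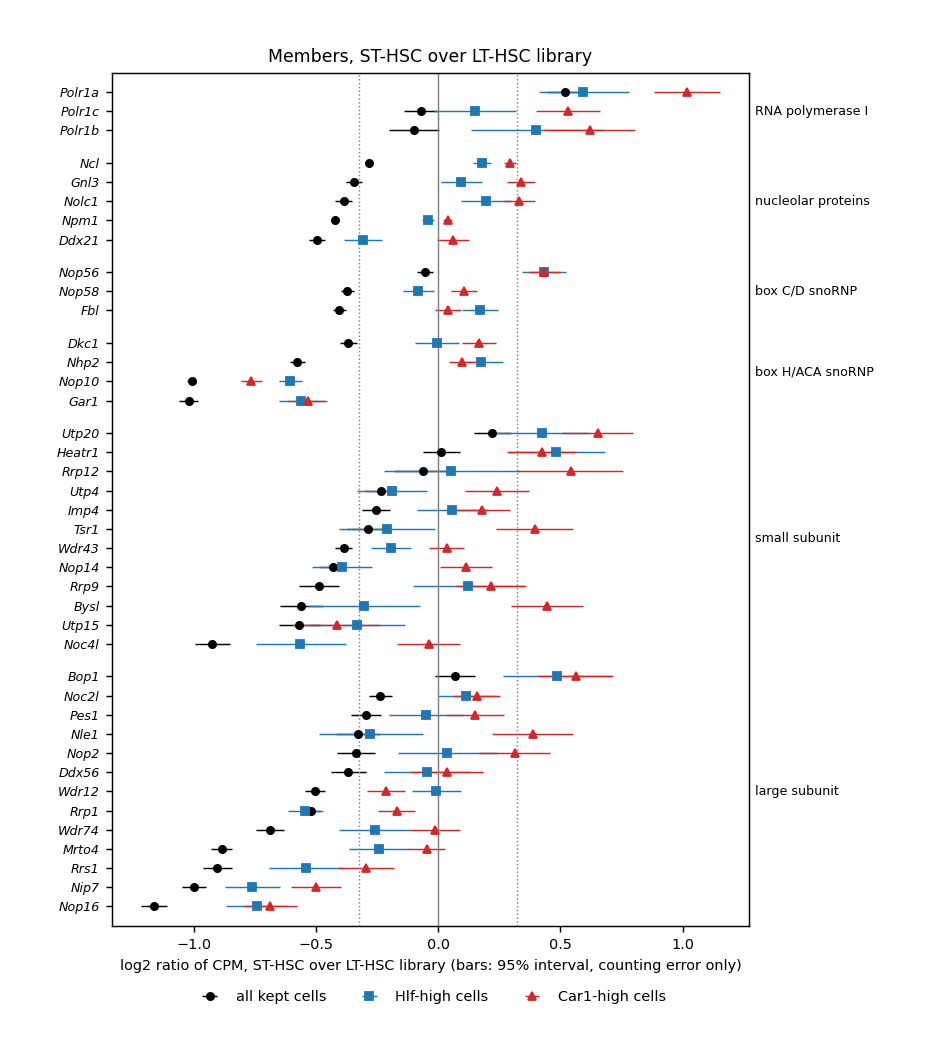
Log2 ratio of CPM of the ST-HSC over the LT-HSC library for each of the 40 genes (horizontal axis), in all kept cells, Hlf-high cells and Car1-high cells, with bars for the 95% interval of counting error and dotted lines at the limits of 20% below and 25% above 1. In all 3 settings Nop16, Nip7, Nop10 and Gar1 lie left of the lower limit, and Polr1a lies right of the upper one.

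Within 1 class the median of the list differed less between the libraries, and single genes lay at both ends. The cells of a class were not alike in the 2 libraries. Among Hlf-high cells the lymphoid markers summed to 716 CPM in the ST-HSC and 47.5 CPM in the LT-HSC library, and the cycle gene Mki67 had 205 and 52.8 CPM. Among Car1-high cells the median of thinned Car1 UMIs was 17 and 30. The part of these differences was not tested. In Hlf-high cells 6 genes were higher and 9 lower in the ST-HSC library, against 28.5% and 25.6% of all genes, which is at or below the background in each direction, and the median log2 ratio was -0.04. In Car1-high cells 13 were higher and 5 lower, against 32.7% and 20.2% of all genes (26.8% and 25.6% with TMM scaling, where 9 and 6 of the 40 passed), with a median of 0.15. These counts too were at or below the background in each direction. The genes named below are therefore single values and not a trait of the list. These comparisons come from the same 2 libraries, so they are given side by side and do not support each other. Nop10 had 305 CPM in the ST-HSC and 464 CPM in the LT-HSC library among Hlf-high cells (ratio 0.658), and 522 and 886 CPM among Car1-high cells (0.588). Gar1, its partner in the H/ACA particle, had ratios of 0.678 and 0.691 in these classes. The other core proteins were close to 1, with Nhp2 at 1.13 and 1.07 and Dkc1 at 0.997 and 1.12. Nop16 had ratios of 0.598 and 0.622, Nip7 0.590 and 0.708, and Utp15 0.795 and 0.750. Lower in Hlf-high cells but between the limits in Car1-high cells were Noc4l (0.677 and 0.974), Rrp1 (0.686 and 0.889), Rrs1 (0.687 and 0.815) and Nop14 (0.761 and 1.08).

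At the other end, Polr1a had 38.5 CPM in the ST-HSC and 25.5 CPM in the LT-HSC library among Hlf-high cells (ratio 1.51, 95% counting interval 1.33 to 1.72), and 75.5 and 37.3 CPM among Car1-high cells (ratio 2.02, 95% counting interval 1.84 to 2.22). Polr1b had ratios of 1.32 and 1.54 in these classes, while Polr1c had 1.11 and 1.45. Nop56 of the box C/D scaffold, with ratios of 1.35 and 1.35, was set apart from Fbl (1.13 and 1.03) and Nop58 (0.945 and 1.08). Bop1 had ratios of 1.401 and 1.48, while its complex partners were between the limits, Pes1 at 0.965 and 1.11 and Wdr12 at 0.995 and 0.863. Heatr1 (1.397 and 1.34) and Utp20 (1.34 and 1.57), both large proteins of the early small-subunit particle, were higher in each class. Higher in Car1-high cells but between the limits in Hlf-high cells were Rrp12 (1.04 and 1.46), Bysl (0.810 and 1.36), Tsr1 (0.864 and 1.32) and Nle1 (0.825 and 1.31), as were Polr1c, Gnl3 (1.07 and 1.27) and Nolc1 (1.15 and 1.26). The nucleolar proteins stayed close to 1 among Hlf-high cells, from 0.808 for Ddx21 to 1.15 for Nolc1, with Ncl at 1.13 and Npm1 at 0.972.

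The genes at the 2 ends of the library ratio in all kept cells differed in length. Nop10 (chr2:112261926-112263269, plus strand) spans 1344 bases, Nip7 (chr8:107056877-107060931, plus strand) 4055, Nop16 (chr13:54584185-54590090, minus strand) 5906 and Gar1 (chr3:129824912-129831396, minus strand) 6485. Polr1a (chr6:71909053-71984935, plus strand) spans 75883 bases, Utp20 (chr10:88746607-88826804, minus strand) 80198, Heatr1 (chr13:12395027-12440289, plus strand) 45263 and Bop1 (chr15:76452989-76477277, minus strand) 24289, by GENCODE M21 on the same build as the files. This reading was chosen after the ratios had been seen. Spearman's rho between the library ratio and the span was 0.565 over the 40 genes in all kept cells, 0.364 in Hlf-high cells and 0.439 in Car1-high cells. Over all protein-coding genes tested it was 0.505, 0.416 and 0.360, so the relation was not confined to the list. Some short genes lay high within a class. Nop56, which spans 4884 bases, was above the upper limit in Hlf-high and Car1-high cells, and Polr1c, which spans 4135, in Car1-high cells. Among Hlf-high cells, protein-coding genes under 10000 bases had a median ratio of 0.834, those of 10000 to 20000 bases 0.909 and longer ones 1.14. The genes of the list had medians of 0.905 (18 genes), 0.968 (10 genes) and 1.02 (12 genes) in these ranges. Among Car1-high cells the medians were 0.913, 0.990 and 1.19 over protein-coding genes and 1.03, 1.12 and 1.26 over the list. What the length relation between the libraries comes from was not tested.

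**Figure D4:**
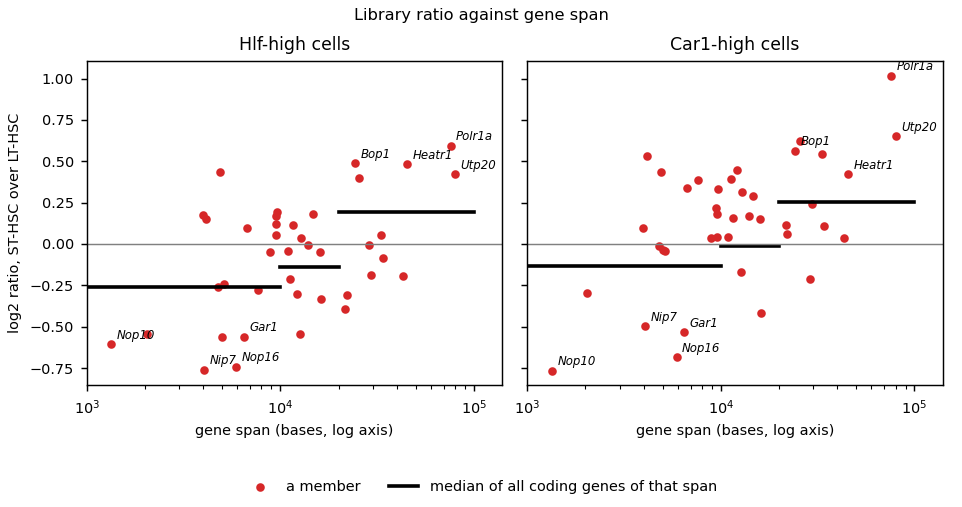
Log2 ratio of the ST-HSC over the LT-HSC library (vertical axis) against the genomic span of the gene (bases, log axis) for the 40 genes in Hlf-high and in Car1-high cells. Points are genes of the list and black lines the medians of all protein-coding genes under 10000, of 10000 to 20000, and of 20000 or more bases. Short genes such as Nop10 lie low and long ones such as Polr1a and Utp20 lie high, as do the medians of all protein-coding genes in both classes. The short gene Nop56 lies high in both classes.

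Cells were counted as past the cycle cut when fixed lists of S and G2/M phase genes, none of them among the 40, held at least 1% of their thinned UMIs. This held for 2140 cells of the ST-HSC library, of which 521 had more S phase and 1619 more G2/M phase RNA, and for 806 cells of the LT-HSC library, with 180 and 626 in these phases. In the ST-HSC library 29 of the 40 genes were higher in these cells than in the others, against 18.7% of all genes higher and 28.8% lower, with a median log2 ratio of 0.37 beside -0.08 over all genes. In the LT-HSC library 26 were higher, against 16.9% of all genes higher and 39.4% lower, with a median of 0.40 beside -0.17. Of these genes 23 were higher in both libraries, and 0 of the 40 were lower in either at this cut. With TMM scaling 30.1% of all genes were higher and 17.3% lower in the ST-HSC library, and 34.1% and 24% in the LT-HSC library. Mrto4 had 97.1 CPM in cells past the cut and 56.3 CPM in the others of the ST-HSC library (ratio 1.73), and 182 and 99.99 CPM in the LT-HSC library (1.82). Nhp2 had ratios of 1.69 and 1.73, Noc4l 1.72 and 1.59, and Ncl 1.51 and 1.61. Npm1 and Fbl had 1.41 and 1.32 in the ST-HSC library and 1.48 and 1.38 in the LT-HSC library. Utp4 was level in both, at 1.02 and 1.013, and Rrp1 was between the limits at 1.204 and 1.02.

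Within a class fewer of the genes passed a limit. Within the Hlf-high cells of the ST-HSC library, 754 past the cut and 2305 not, 2 genes were higher, Nhp2 at 1.33 and Noc4l at 1.27. In the same cells 2 were lower, Utp4 at 0.791 and Rrp9 at 0.787, against 13.3% of all genes higher and 18.4% lower. Both counts were below the background. Within the Car1-high cells of the LT-HSC library, 446 past the cut and 287 not, 4 genes were higher and 0 lower. Over all genes 9.21% were higher and 20% lower, so the count of higher genes was near the background. The 4 were Mrto4 at 1.34, Rrp12 at 1.33, Ncl at 1.28 and Nhp2, at 378 CPM past the cut and 303 CPM below it. These comparisons within a class were added after the results by library were seen, and their counts move with scaling. Under TMM 5 genes were higher and 0 lower in the Hlf-high cells, against 17.1% of all genes higher and 13.8% lower, and 13 were higher in the Car1-high cells, against 16.9% higher and 13.8% lower.

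In 5 of the 6 classes set out by phase, S phase cells had the largest median share of the 40 genes. Depth was not matched in the medians by phase. Of the ST-HSC Hlf-high cells, 1121 of 2305 not past the cut held 5000 to 10000 UMIs, against 30 of 754 past it. Among Dntt-positive cells of the ST-HSC library the median share of the 40 genes was 0.661% in S phase, 0.465% in G2/M phase and 0.430% in cells not past the cut. Among Hlf-high cells of that library it was 0.588%, 0.441% and 0.426%, and among its cells in no class 0.698%, 0.570% and 0.459%. In the LT-HSC library the cells in no class had 0.745%, 0.574% and 0.546%, and the Pf4-high cells 0.764%, 0.647% and 0.716%. The Car1-high cells of the LT-HSC library had medians of 0.955% in S phase, 1.02% in G2/M phase and 0.845% in cells not past the cut, so G2/M phase came first there. Among cells with 20000 to 40000 UMIs, medians past the cut and not past it were 0.533% and 0.488% in Dntt-positive cells. They were 0.479% and 0.455% in ST-HSC Hlf-high cells and 0.648% and 0.577% in ST-HSC cells in no class. LT-HSC cells in no class had 0.630% and 0.604%. Pf4-high cells had 0.692% and 0.751%, and LT-HSC Car1-high cells 0.858% and 0.937%. By gene, Ncl had 1229.8 CPM in S phase, 1145 CPM in G2/M phase and 772 CPM in cells that did not pass the cycle cut in the ST-HSC library, and 1255 CPM in S phase, 1482 CPM in G2/M phase and 901 CPM in cells that did not pass the cycle cut in the LT-HSC library. Nop56 had 235 CPM in S phase, 193 CPM in G2/M phase and 136 CPM in cells that did not pass the cycle cut in the ST-HSC library. It was highest in S phase there, while in the LT-HSC library the phases were level at 209 and 209.7 CPM, above 139 CPM in cells not past the cut. Raising the cut to 2% left 318 ST-HSC cells, 317 of them with more G2/M than S phase RNA, and 53 LT-HSC cells, all 53 with more G2/M phase RNA. In these cells the median share was 0.411% and 0.453% in the ST-HSC and LT-HSC libraries, against 0.475% and 0.608% in the cells under that cut, so the direction turned with the cut. Past it 31 of the 40 genes were lower and 0 higher in the ST-HSC library (median log2 ratio -0.41), and 35 lower and 0 higher in the LT-HSC library (-0.72). Over all genes 15.3% were lower and 14.3% higher in the ST-HSC library, and 18.1% and 28.7% in the LT-HSC library. The classes past the cut also changed. Car1-high cells were 13 of the 318 ST-HSC cells and 9 of the 53 LT-HSC cells past 2%, beside 230 of 2140 and 446 of 806 past 1%, and the part of this in the turn was not tested. Phase calls rest on counted transcripts, to which free RNA in the droplets can add, and its part was not tested.

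**Figure D5:**
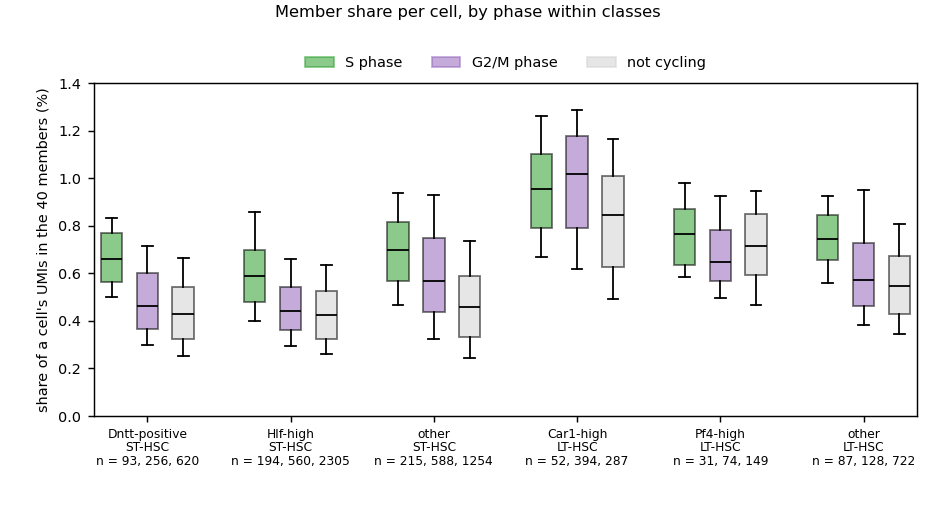
Share of a cell's UMIs in the 40 genes (percent, vertical axis) by phase within 6 classes. Boxes show the quartiles over cells, lines the medians and whiskers the 10th and 90th percentiles, and the numbers of cells under each class are those for S phase, G2/M phase and not past the cut. In the 3 ST-HSC classes the S phase median (0.661%, 0.588% and 0.698%) is above the G2/M median, and in LT-HSC Car1-high cells (0.955%) it is below it (1.02%).

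Other genes of the same pathway, from 5 lists that hold none of the 40, also tended to be higher in Car1-high cells, with smaller medians than the 40. In Car1-high over Hlf-high cells, 90 of 122 were higher and 4 lower in the ST-HSC library (median log2 ratio 0.66), and 70 higher and 6 lower in the LT-HSC library (0.39). Among 42 further small-subunit factors 32 were higher in the ST-HSC library and 26 in the LT-HSC library, with Pno1, which closes the 3′ end of the 40S precursor, at 3.25 and 3.29. Among 41 large-subunit factors 32 and 21 were higher, with the methyltransferase gene Ftsj3 at 3.08 and 2.49. Of 13 tested genes of the RNA exosome, which trims the ribosomal RNA precursor, 11 and 10 were higher, with Exosc8 at 2.76 and 3.07. Of 18 further polymerase I genes, which include subunits shared with other polymerases, 11 and 8 were higher, and 3 were lower in each library. The snoRNA host transcript Snhg3 had ratios of 3.56 and 3.35, and 7 and 6 of 11 hosts were higher. Of the ribosomal proteins themselves, 32 of 79 genes were higher and 1 lower in the ST-HSC library, where 28.9% of all genes were higher and 46.7% lower, and 30 of 79 were higher and 0 lower in the LT-HSC library, where 23.7% of all genes were higher and 50.9% lower. Their pooled share was 27.1% and 29.8% of UMIs in Car1-high cells against 22.9% and 25.5% in Hlf-high cells. Between the libraries, 63 of the 122 other biogenesis genes were lower and 9 higher in the ST-HSC library, against 23% and 38.5% of all genes. In Pf4-high over Hlf-high cells 40 were higher and 9 lower, against 21.4% and 41.4% of all genes. In 2 comparisons their median was not a smaller one in the direction of the 40. Among Hlf-high cells, ST-HSC over LT-HSC, it was -0.16 beside -0.04, and in Dntt-positive over Hlf-high cells -0.00379 beside 0.03.

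Myc and Mycn, whose proteins are known activators of ribosome biogenesis genes, did not follow the list across all classes. Myc had 85.8 CPM in Car1-high and 54.99 CPM in Hlf-high cells of the ST-HSC library (ratio 1.56, 95% counting interval 1.44 to 1.68), and 157 and 69.9 CPM in the LT-HSC library (ratio 2.25, 95% counting interval 2.08 to 2.43). In Pf4-high cells it had 77.3 CPM, a ratio of 1.11 to the Hlf-high cells, where 26 of the 40 genes were higher. Mycn ran the other way, with 0.775 and 16.4 CPM in the Car1-high and Hlf-high cells of the ST-HSC library and 5.17 and 98.1 CPM in those of the LT-HSC library. Past the cycle cut, Myc was between the limits, at 0.883 in the ST-HSC library and 1.09 in the LT-HSC library.

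On the genome the 40 genes lie on 17 chromosomes, with 6 of them on chromosome 11. Among them 7 hold snoRNA genes inside their span, 21 in all, so that the transcript of the protein gene also carries guide RNAs. These are Ncl, Gnl3, Nop56, Nop58, Dkc1, Wdr43 and Tsr1, and the levels of the snoRNAs are not described here. Apart from snoRNA genes, overlaps were counted only with genes annotated as protein-coding, lincRNA, antisense or processed transcript. Of the 40, 0 overlap such a gene on the same strand and 17 overlap one on the opposite strand. Whether the counting used strand is not given in the sources used here, so whether reads of such a partner entered the counts of the gene is not known.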

How the data were processed

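Single-cell RNA of 2 mouse bone marrow libraries, 1 labelled ST-HSC and 1 labelled LT-HSC, was used. The authors deposited raw UMI counts per gene and barcode, with no normalization. These were made with Cell Ranger 7.2 on mm10 per the submitters' processing notes, while the matrices name version 7.1.0 per the file headers. The labels name the 10x 3' v2 kit, and whether counting used strand is not given in the sources used here.

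Barcodes with at least 1000 genes and under 10% mitochondrial UMIs were kept, 6648 with 111783180 UMIs in the ST-HSC library and 2722 with 64673871 UMIs in the LT-HSC library. Classes and phases were cut on counts thinned to 5000 UMIs per cell, which left out 281 ST-HSC and 68 LT-HSC cells, and values come from unthinned sums. Scrublet (scanpy 1.11.5) marked 0 and 7 cells, under 0.5%, so its threshold was taken as failed and doublets were kept. As an alternative the 402 ST-HSC and 40 LT-HSC cells with the highest scores were left out.

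Ratios of CPM carry exact conditional binomial (Clopper-Pearson) 95% intervals, which hold counting error alone. No test was run, since a group is 1 library and cells are not replicates. Genes counted in a comparison had a mean of at least 5 CPM over both groups, and classes under 50 cells were not compared. TMM sizes came from edgeR 4.0.16. The ratio step was tested on simulated data. Coordinates are 1-based on GRCm38 (mm10) from GENCODE M21, which held 32158 of the 32285 gene IDs, and promoters are from RefSeq. The 40 genes and all lists were chosen with earlier results of these data known. Named in each comparison were Ncl, Npm1 and Fbl, the 4 highest and 4 lowest ratios, the highest and lowest of each role, and up to 4 genes of each other list with the largest log2 ratio. Further genes are named to account for all 40 or, beyond that rule, were chosen after their values were seen. Of the comparisons, 3 were added after the data had been seen, between libraries in Car1-high cells and by cycle within a class.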

Additional observations from a re-analysis of the deposited data

How the results depend on the processing

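Across scaling, filters on cells and genes, weighting of cells, thinning, doublet scores, left-out barcodes and moved class cuts, 38 to 40 of the 40 genes were higher in Car1-high than in Hlf-high cells, and 37 in the LT-HSC library without cells past the cycle cut. Over all genes the share higher ran from 22.5% in that last setting to 47.9% with median-of-ratios scaling in the LT-HSC library. Thinning gave 19 genes lower in the ST-HSC library and TMM or median-of-ratios scaling 32, against 26 as reported and 10 without Car1-high and Pf4-high cells. Over all genes 25.4% were lower with thinning, 31.1% with TMM, 31.9% with median-of-ratios scaling, 23% as reported and 25% without those cells. In Dntt-positive cells 1 gene was higher with class cuts doubled and 2 were lower without cells past the cycle cut, and in Pf4-high cells 1 was lower after thinning, against 0 as reported in each case. Over all genes 9.2% were higher, 12.3% lower and 42.9% lower in these settings, in that order.

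The count of genes higher past the cycle cut depended on its place. At a cut of 2% it was 0 in both libraries and 0 in ST-HSC Hlf-high cells. At that cut 31 of the 40 genes were lower in the ST-HSC library, 35 in the LT-HSC library and 24 in ST-HSC Hlf-high cells (median log2 ratios -0.41, -0.72 and -0.40). Over all genes 15.3%, 18.1% and 18.4% were lower and 14.3%, 28.7% and 15.8% higher, in that order. With median-of-ratios scaling at the cut of 1%, the count of higher genes was 40 in the LT-HSC library, against 36.4% of all genes. Within ST-HSC Hlf-high cells it was 5 with TMM and 7 with median-of-ratios scaling, 1 without ribosomal protein genes in the total, 4 with equal weight per cell, 4 after thinning and 15 at a cut of 0.5%. Over all genes 17.1%, 18.2%, 12.1%, 15.7%, 17.2% and 15.8% were higher, in that order. Within LT-HSC Car1-high cells the count was 13 with TMM and 14 with median-of-ratios scaling, 8 with equal weight, 10 after thinning, 7 with class cuts at 0.5 times and 29 at a cut of 0.5%. Over all genes 16.9%, 18.7%, 12.2%, 18%, 9.83% and 25.2% were higher, in that order.

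Among the genes chosen for naming in each comparison, not all 40, single values that changed sign numbered 23, of which 20 came from the cut at 2%. The log2 ratios past that cut in the ST-HSC library were -0.33 for Ncl, -0.20 for Npm1, -0.61 for Nolc1, -0.58 for Fbl, -0.38 for Nop56, -0.38 for Nop58, -0.47 for Nhp2, -0.39 for Nop10, -0.13 for Noc4l and -0.54 for Mrto4. In the LT-HSC library they were -0.85 for Ncl, -0.67 for Npm1, -0.069 for Polr1c, -0.63 for Fbl, -0.72 for Nop56, -0.70 for Nhp2, -0.61 for Dkc1, -0.27 for Noc4l and -1.08 for Mrto4. Within ST-HSC Hlf-high cells Nhp2 was at -0.35 past that cut, Rrp9 at 0.0027 at a cut of 0.5% and Noc4l at -0.11 after thinning, and within LT-HSC Car1-high cells Rrp12 was at -0.068 after thinning. For these reversals and moved counts the cause was not tested.

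Limits are 1 library per group and no replicate error. The alternatives without cells past the cycle cut in ST-HSC Car1-high cells (35 left) and with a cut of 2% in LT-HSC Car1-high cells (9 left) were not run, being under 50 cells. Low levels, such as those of Rrp12 or Polr1b, carry the widest counting intervals. No paired analysis was possible because each group has 1 library and the labels give no replicate numbers.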
